A study of Homo sapiens with 18 samples.

Results

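MOLM13 is a line of monocytic acute myeloid leukaemia cells, and its unperturbed expression profile was set against those of 2 other myeloid leukaemia lines, HL-60 and SKM1. The comparison used the 9 arrays, of 18 in all, from cells that received the non-targeting hairpin shNT. They were 3 arrays of MOLM13 shNT, 3 of HL-60 shNT and 3 of SKM1 shNT, and the reference for MOLM13 was the mean of the HL-60 and SKM1 groups on the log2 scale, each line weighted equally. The remaining 9 arrays came from the same lines carrying shBCAT1-3, a hairpin against BCAT1, the cytosolic transaminase of branched-chain amino acids, and they served as a second set in which the same line difference was measured. In both sets the cells had been transduced and then sorted 48 hours later for the transduced population, so transduction with a hairpin and a sort are common to every group. HL-60 was grown in RPMI with 10% serum and the other lines with 20%. Serum thus cannot be told apart from line in any difference that involves HL-60. Medians of the main gene lists are therefore given against SKM1 as well. Each line is 1 line, the labels do not say that the 3 arrays of a group came from separate cultures, and p-values measure only the spread between these arrays, which may be technical.

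As background, the lines represent different stages and lesions of myeloid leukaemia. MOLM-13 is known to carry a KMT2A::MLLT3 fusion, an internal tandem duplication in the receptor FLT3 and extra copies of chromosome 8. HL-60 is a promyelocytic line with amplified MYC, and SKM-1 is a line from a myelodysplastic syndrome that turned into monocytic leukaemia. KMT2A fusions keep a progenitor programme switched on, which includes MEIS1 and PBX3. Activated FLT3 signals through STAT5, which switches on SOCS2, CISH and PIM1. None of these lesions was measured on the arrays.

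Expression was tested for 15288 genes, each represented by its brightest probe. Values are array intensities, and the median of all probe values, 92.1, marks the level at which a probe is barely distinguishable from its neighbours at background. Pairs of arrays from different lines correlated at 0.901 to 0.916 over the tested genes, against 0.989 to 0.996 within MOLM13, 0.992 to 0.994 within HL-60 and 0.996 to 0.997 within SKM1. The lines kept markers of myeloid cells. LCP1, which bundles actin in leukocytes, averaged 9363 ± 721 in MOLM13, against 8797 ± 971 in HL-60 and 10960 ± 709 in SKM1 (SD, n = 3 arrays), and SPI1, the master transcription factor of myeloid cells, was between 1493 and 2496 on all 9 arrays. PTPRC, which encodes CD45, lay near background in all 3 lines on the probe used (102 ± 15.9 in MOLM13, against 95.7 ± 3.97 in HL-60 and 95.4 ± 6.0 in SKM1). Markers of erythroid and B cells were near background in every line. Among markers of T and natural killer cells, CD3D and NKG7 were higher in MOLM13 and others were not. CD2 was slightly below the mean of the other lines, and CD3E was at background in all of them. CD3D averaged 412 ± 71.5 in MOLM13, against 83.2 ± 4.82 in HL-60 and 77.9 ± 6.35 in SKM1, and NKG7 averaged 3054 ± 140, 956 ± 28.7 and 514 ± 36.2 in the same order.

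MOLM13 differed from the mean of HL-60 and SKM1 at 7214 genes, 47.2% of those tested (limma moderated test, Benjamini-Hochberg adjusted p under 0.05), of which 3153 (20.6%) were higher and 4061 (26.6%) lower. The shares of 20.6% higher and 26.6% lower are the reference for each gene list below. Against HL-60 alone 44.3% of the genes were called and against SKM1 alone 47.7%. Most of these differences were small: 654 genes (4.28%) were at least 2-fold higher and 419 (2.74%) at least 2-fold lower. A mean of 2 lines can be passed without leaving their range, and at 1328 of the called genes (8.69% of those tested) the MOLM13 mean lay between the means of the other lines. The stricter reading used throughout, called "apart" here, asks that the gene passed the test and that all 3 MOLM13 arrays lay above, or all below, the 6 other shNT arrays. By that reading 1808 genes (11.8%) were apart higher and 2102 (13.7%) apart lower. Among these, 357 were at least 2-fold above the nearer of the other lines, and 54 of them had both other lines below the median of all probe values. Another 153 were at least 2-fold below the nearer line, and in 31 of those MOLM13 was below that median.

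The 15 genes farthest above both other lines were of varied function. MT1G, a metallothionein that binds zinc and copper, read 6216, 6182 and 6156 in MOLM13, against 93.7, 91.9 and 121 in HL-60 and 92.6, 90.7 and 96.1 in SKM1. It was thus bright on the MOLM13 arrays and at background on the 6 others, a 63.7-fold difference (log2 5.99 ± 0.09, SE; adjusted p = 1.44e-24). PRSS57, a serine protease of neutrophil granules, read 10125, 9229 and 9377 in MOLM13, against 336, 290 and 284 in HL-60 and 114, 109 and 115 in SKM1 (51.8-fold, log2 5.70 ± 0.07, SE; adjusted p = 4.17e-25). GAS6, the secreted ligand of the AXL, TYRO3 and MERTK receptors, read 3396, 2839 and 2773 in MOLM13 and stayed between 80.6 and 92.1 on all arrays of the other lines (34.8-fold, log2 5.12 ± 0.07, SE; adjusted p = 1.27e-24). Of its 3 other probes, 1 showed a log2 difference of 5.07 and the remaining pair 0.49 and 0.01.

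Further genes of this group were bright in MOLM13, and some of them were also above background in another line. TRPM4, a calcium-activated cation channel, averaged 3219 ± 330 in MOLM13, against 82.8 ± 2.03 in HL-60 and 120 ± 3.97 in SKM1 (log2 5.01). APOC2, the apolipoprotein that activates lipoprotein lipase, averaged 4223 ± 507 in MOLM13, against 228 ± 33.2 in HL-60 and 87.8 ± 4.0 in SKM1 (log2 4.90). FSCN1, which bundles actin filaments in migrating cells, averaged 3291 ± 643 in MOLM13, against 141 ± 11.7 in HL-60 and 218 ± 4.89 in SKM1 (log2 4.21). CT45A3, a cancer-testis antigen on the X chromosome, averaged 1455 ± 186 in MOLM13, against 85.2 ± 6.82 in HL-60 and 82.3 ± 2.99 in SKM1. The other genes of this group were CDKN1A, TGM5, TYROBP, CD68, MTMR11, PIM1, NKD2 and MCOLN2, with log2 differences between 3.50 and 4.46. The other TGM5 probes showed 2.96, 0.54 and -0.14. MCOLN2 encodes an endolysosomal ion channel and NKD2 an inhibitor of WNT signalling.

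Several neighbours in the same gene families stood with them on the probe used. These relatives were looked up after the leading genes had been seen, so their number carries no test. Among the metallothioneins, MT1E averaged 4544 ± 458 in MOLM13, against 111 ± 13.0 in HL-60 and 1115 ± 82.6 in SKM1, and MT1F averaged 2728 ± 341, 89.8 ± 6.97 and 619 ± 23.2 in the same order. MT1H was at 687 ± 97.3 in MOLM13 and near background in HL-60 (81.1 ± 5.02) and SKM1 (96.9 ± 8.13). The other MT1E probe, not above background, showed a log2 difference of -0.01, against 3.69 on the probe used. The other MT1H probe, also not above background, showed 0.03 against 2.95. Whether metallothionein probes read each other was not tested. MT1X was apart by a smaller margin, 5625 ± 1100 in MOLM13, against 1768 ± 151 in HL-60 and 3480 ± 76.8 in SKM1. MT2A broke the pattern, since it averaged 4283 ± 1393 in MOLM13 and 4328 ± 443 in HL-60, with 1088 ± 39.5 in SKM1. APOC1, which lies beside APOC2 in the apolipoprotein cluster of chromosome 19, averaged 1535 ± 132 in MOLM13, against 94.4 ± 6.01 in HL-60 and 237 ± 33.6 in SKM1, whereas APOE from the same cluster reached only 129 ± 16.3 in MOLM13, with 90.4 ± 5.3 in HL-60 and 88.8 ± 1.98 in SKM1. CT45A1 was at 724 ± 37.4 in MOLM13 and at 83.9 ± 2.48 in HL-60 and 88.1 ± 5.89 in SKM1. Its other probes, not above background, showed log2 differences of 0.19 and 0.15, against 3.07 on the probe used. These CT45 copies are near-identical in sequence, and their probes may read each other. The listed cancer-testis antigens outside this family did not share the direction. Of 9 tested, 0 were higher and 4 (44.4%) lower in limma's test, against 20.6% and 26.6% over all genes. By an unadjusted p under 0.05, 0 of the 9 were higher as well.

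Metallothionein promoters carry metal response elements, short sites bound by the zinc sensor MTF1 with the core TGCNCNC. The promoters of 2 members are shown because one, MT1H, was apart in MOLM13 and the other, MT2A, was not. They run from 250 bases before to 50 bases after the start of the gene (RefSeq, GRCh38.p14, plus strand), with matches to TGCNCNC on either strand in capitals.
MT1H promoter, chr16:56669564-56669863: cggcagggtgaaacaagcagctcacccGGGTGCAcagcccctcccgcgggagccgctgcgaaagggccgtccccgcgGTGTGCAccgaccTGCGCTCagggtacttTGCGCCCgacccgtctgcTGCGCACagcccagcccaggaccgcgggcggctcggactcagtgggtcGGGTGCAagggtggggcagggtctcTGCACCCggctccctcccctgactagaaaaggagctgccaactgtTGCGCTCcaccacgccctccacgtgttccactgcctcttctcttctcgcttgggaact
MT2A promoter, chr16:56608334-56608633: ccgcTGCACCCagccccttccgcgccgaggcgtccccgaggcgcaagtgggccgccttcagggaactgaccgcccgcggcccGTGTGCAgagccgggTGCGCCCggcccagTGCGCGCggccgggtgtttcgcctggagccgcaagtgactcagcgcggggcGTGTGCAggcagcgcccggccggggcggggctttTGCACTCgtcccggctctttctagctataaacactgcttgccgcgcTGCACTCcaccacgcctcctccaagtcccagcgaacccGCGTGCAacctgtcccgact
Each of these held 8 matches and the MT1X promoter 4. At least 1 match was present in 55.9% of the 35116 promoters in the table and at least 8 in 0.0712%, so the motif alone is common and this density of it is not. The promoters of the member that stood apart and of the member that did not had the same number of matches.

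The genes farthest below both other lines included granulocyte genes and genes of unrelated function. MPO, the myeloperoxidase of azurophil granules, read 579, 754 and 720 in MOLM13, against 14254, 14200 and 14426 in HL-60 and 11329, 11322 and 12417 in SKM1. MOLM13 thus kept a signal above background, 19.0-fold below the mean of the other lines (log2 -4.25 ± 0.08, SE; adjusted p = 5.64e-22). CEBPE, the transcription factor of late granulocyte maturation, read 185, 154 and 160 in MOLM13, against 3968, 3295 and 3475 in HL-60 and 1229, 1005 and 1115 in SKM1 (log2 -3.59). ITM2A, a small membrane protein, read 88, 89.3 and 91.3 in MOLM13 and between 1970 and 2899 on the other arrays, a difference of -4.78 on the log2 scale. Its other probe was not above background in any line and showed -0.07.

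SERPINE2, an inhibitor of extracellular proteases, averaged 88.6 ± 5.35 in MOLM13, against 1361 ± 164 in HL-60 and 1547 ± 51.1 in SKM1, which put MOLM13 at background (log2 -4.03). HERC5, the ligase that attaches the interferon-induced modifier ISG15, averaged 108 ± 10.9 in MOLM13, against 1295 ± 57.1 in HL-60 and 1226 ± 62.7 in SKM1 (log2 -3.55). APP, the amyloid precursor protein, averaged 170 ± 8.45 in MOLM13, against 829 ± 104 in HL-60 and 1159 ± 32.9 in SKM1 (log2 -2.53). SLC25A4, the heart and muscle isoform of the mitochondrial ADP/ATP carrier, averaged 198 ± 6.97 in MOLM13, against 976 ± 47.7 in HL-60 and 1074 ± 44.5 in SKM1 (log2 -2.37). CYFIP2, ANKRD35, PROSER1, DNAAF3, ICA1, MACROD1, RAVER2 and IGFBP2 made up the rest, with log2 differences between -3.32 and -2.36. For PROSER1, ICA1 and CYFIP2 at least 1 further probe showed a difference of less than 0.1 in size. These 30 genes were chosen for their distance from the other lines. Leaving out any single shNT array ended the call of none of them.

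**Figure D1:**
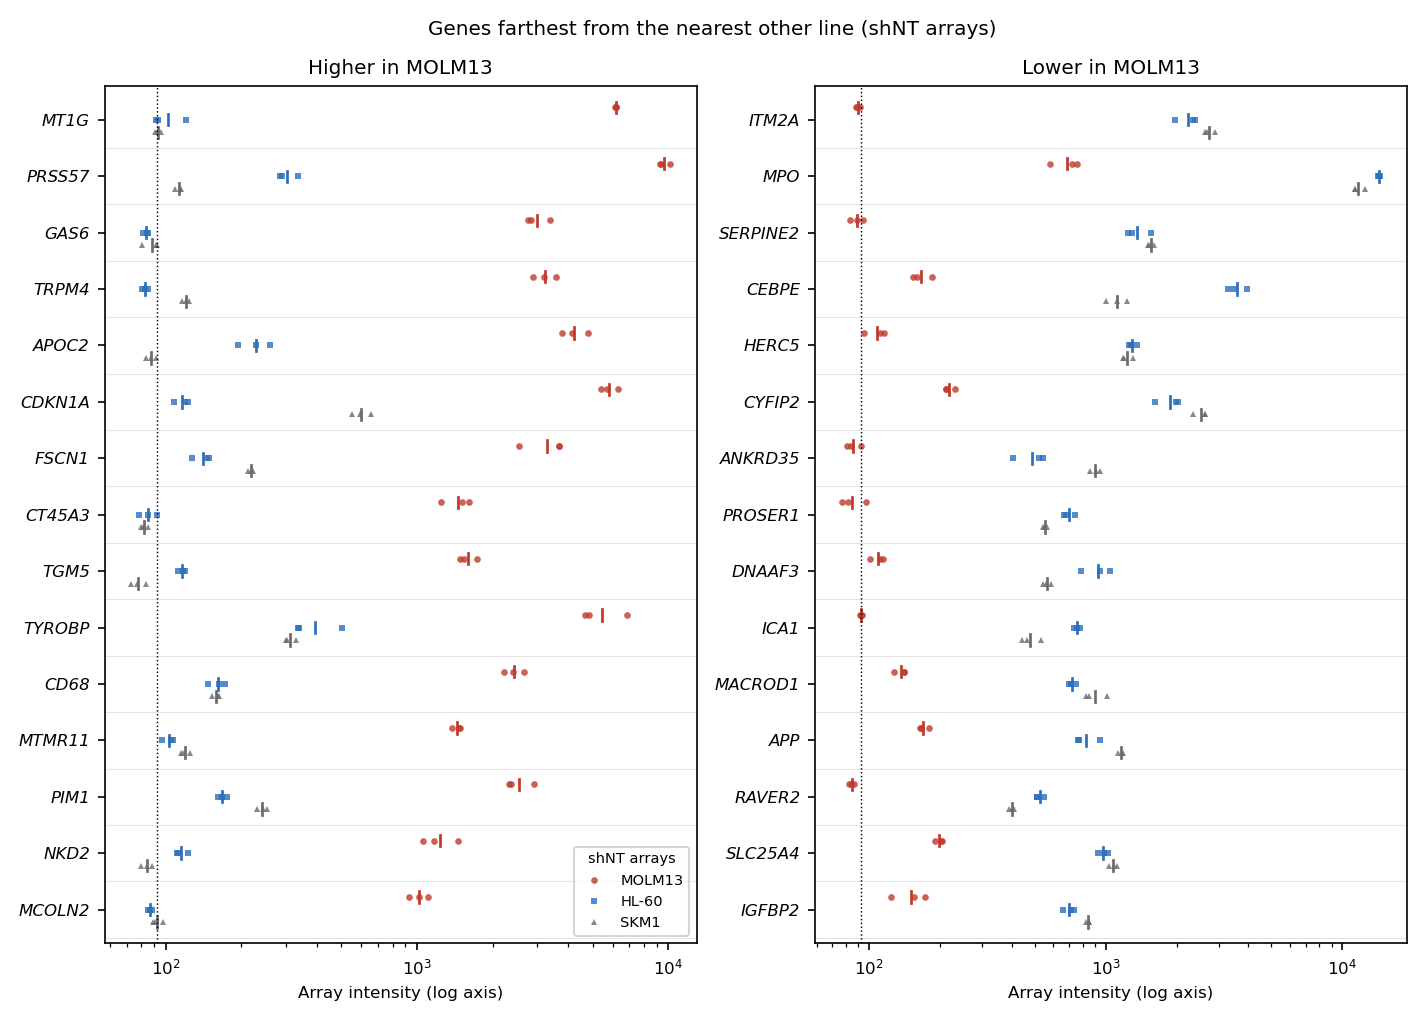
Array intensity (log axis) of the 15 genes farthest above and the 15 farthest below the nearer of the other lines, for the 3 shNT arrays of MOLM13 (circles), HL-60 (squares) and SKM1 (triangles). Vertical ticks are group means and the dotted line is the median of all probe values, 92.1. The genes were chosen so that no MOLM13 array overlaps another line. MT1G, at 6184 on average in MOLM13, is near the dotted line in both other lines.

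Azurophil granules are made at the promyelocyte stage and hold MPO together with serine proteases and lysozyme. In MOLM13 these proteins separated. Of the 14 granule genes tested, 11 (78.6%) were higher and 2 (14.3%) lower, against 20.6% and 26.6% over all genes. Their median log2 difference was 1.56, against -0.03 over all genes, with 1.98 against HL-60 and 0.68 against SKM1. ELANE, neutrophil elastase, read 12910, 13971 and 14808 in MOLM13, against 92.6, 85.7 and 82.1 in HL-60 and 8293, 8463 and 8058 in SKM1. HL-60 was thus at background and SKM1 within 2-fold of MOLM13 (log2 0.75 against SKM1, adjusted p = 9.55e-09). CTSG, cathepsin G, showed the opposite split: 7698, 7138 and 7496 in MOLM13, with 4650, 6052 and 5802 in HL-60 and only 164, 147 and 154 in SKM1. AZU1, the antimicrobial protein azurocidin, averaged 12203 ± 1355 in MOLM13, against 838 ± 124 in HL-60 and 4118 ± 78.2 in SKM1. PRTN3, proteinase 3 and the neighbour of ELANE and AZU1 on chromosome 19, averaged 11242 ± 100 in MOLM13, against 2032 ± 307 in HL-60 and 8457 ± 21.6 in SKM1.

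ELANE, CTSG, AZU1, PRTN3 and PRSS57 were thus all bright in MOLM13, while HL-60 was low in ELANE and PRSS57 and SKM1 in CTSG and PRSS57. LYZ, lysozyme, averaged 7931 ± 2106 in MOLM13, against 166 ± 39.9 in HL-60 and 4271 ± 194 in SKM1. RNASE2, the eosinophil-derived neurotoxin, averaged 11094 ± 270 in MOLM13, against 6586 ± 590 in HL-60 and 1864 ± 126 in SKM1. SERPINB1, which inhibits the granule proteases inside the cell, was higher as well (2241 ± 159 in MOLM13, against 368 ± 41.2 in HL-60 and 889 ± 37.7 in SKM1). SRGN, the proteoglycan on which these proteases are packed, averaged 14912 ± 371 in MOLM13, against 10072 ± 678 in HL-60 and 9854 ± 611 in SKM1. BPI passed the test (log2 0.94) with MOLM13 between the other lines, and CTSC, which activates the proteases, did not pass it (log2 0.19, adjusted p = 0.0855), but did so without MOLM13 replicate 2 (adjusted p = 0.0473) and with the mean of all its probes (log2 0.23, adjusted p = 0.0217). MPO and HGF were the lower members, and HGF was dim in all 3 lines, at most 121 on average in HL-60.

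**Figure D2:**
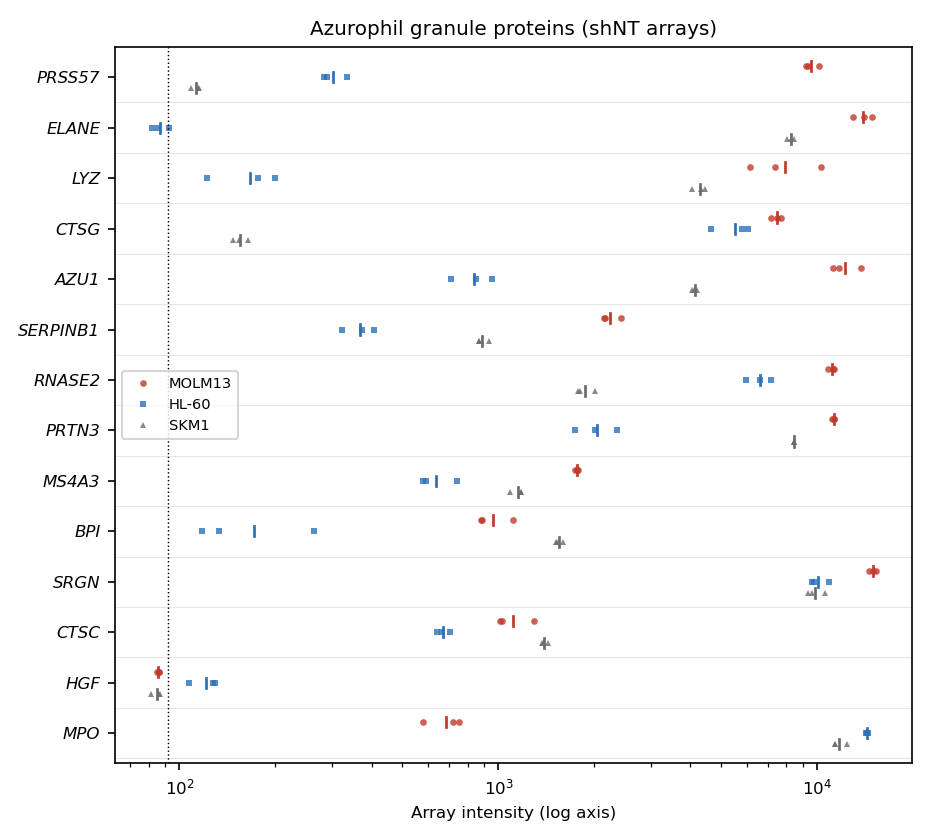
Array intensity (log axis) of the 14 azurophil granule genes tested, sorted by log2 difference, on the 3 shNT arrays of MOLM13, HL-60 and SKM1, with ticks at group means and a dotted line at the median of all probe values. PRSS57, ELANE, LYZ and AZU1 are bright in MOLM13 and low in HL-60, CTSG is low in SKM1, and MPO alone is more than 10-fold lower in MOLM13 than in both other lines.

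Other granule genes gave a mixed account. Among 6 eosinophil granule genes, PRG2, the major basic protein, averaged 13486 ± 514 in MOLM13 and 13713 ± 342 in HL-60, with 1171 ± 41.6 in SKM1. CLC, the Charcot-Leyden crystal protein, was at background in MOLM13 (98.1 ± 1.1) and bright in HL-60 (6682 ± 1639), with 136 ± 8.22 in SKM1. Of the 16 genes of specific granules and S100 proteins, 3 (18.8%) were higher and 8 (50%) lower. Their median was -0.20, with 0.10 against HL-60 and -0.17 against SKM1. S100A9, a calcium-binding alarmin of monocytes and neutrophils, averaged 232 ± 59.8 in MOLM13, against 86.6 ± 3.02 in HL-60 and 11812 ± 566 in SKM1, so the negative difference from the mean (log2 -2.16) came from SKM1 alone and MOLM13 exceeded HL-60. S100A8 and MMP9 lay between the lines in the same way. CHI3L1, a chitinase-like protein, was apart higher (822 ± 182 in MOLM13, against 101 ± 5.57 in HL-60 and 406 ± 34.5 in SKM1).

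Monocyte genes were higher in MOLM13, although the probe used for the standard monocyte receptor CD14 was near background. Of 33 monocyte and macrophage markers tested, 20 (60.6%) were higher and 5 (15.2%) lower, and 14 were apart higher and 0 apart lower. Their median was 0.59, with 0.86 against HL-60 and 0.32 against SKM1. TYROBP, the adaptor of activating myeloid receptors, read 6857, 4819 and 4656 in MOLM13, against 502, 340 and 335 in HL-60 and 331, 300 and 304 in SKM1. CD68, a lysosomal glycoprotein of macrophages, averaged 2429 ± 226 in MOLM13, against 161 ± 13.1 in HL-60 and 159 ± 5.25 in SKM1. CD93, a receptor of immature myeloid cells, averaged 764 ± 26.4 in MOLM13 and was at background in HL-60 (79.9 ± 4.61) and SKM1 (81.5 ± 1.43). MS4A6A averaged 977 ± 150 in MOLM13, against 114 ± 11.2 in HL-60 and 193 ± 34.7 in SKM1. CD14 itself was near background, 103 ± 7.61 in MOLM13, against 103 ± 13.1 in HL-60 and 82.5 ± 0.899 in SKM1.

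IRF8 of the monocyte list and some genes of antigen presentation were higher in SKM1 than in MOLM13. IRF8, a transcription factor of monocyte and dendritic cell fate, averaged 2781 ± 331 in MOLM13, against 101 ± 8.05 in HL-60 and 3759 ± 96.9 in SKM1, and CD74, the invariant chain of MHC class II, averaged 2234 ± 366, 103 ± 8.98 and 3949 ± 191 in the same order. HLA-B behaved likewise (4631 ± 725 in MOLM13, against 352 ± 79.8 in HL-60 and 12905 ± 255 in SKM1). Of 16 class I presentation genes, 3 (18.8%) were higher and 6 (37.5%) lower, and their median was 0.28 against HL-60 but -1.04 against SKM1.

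Among 27 myeloid transcription factors, 14 (51.9%) were higher and 6 (22.2%) lower, with a median of 0.27. The median was 0.63 against HL-60 but 0.00 against SKM1. CEBPD, a stress-responsive member of the C/EBP family encoded on chromosome 8, averaged 4148 ± 91.6 in MOLM13, against 592 ± 28.9 in HL-60 and 2044 ± 98.6 in SKM1. NFE2 averaged 2477 ± 68.0 in MOLM13, against 626 ± 54.8 in HL-60 and 1030 ± 55.9 in SKM1. FOS, an immediate early gene, was at 466 ± 58.4 in MOLM13 and at background in HL-60 (92.1 ± 10.4) and SKM1 (94.6 ± 2.72). Set beside CEBPE, the family was split within MOLM13: CEBPD was higher and CEBPE 12-fold lower than the mean of the other lines.

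Genes of secretion, adhesion and the lysosome were higher in similar proportion. Of 29 cytokine and chemokine genes, 19 (65.5%) were higher and 3 (10.3%) lower. Their median was 0.57, with 0.58 against HL-60 and 0.25 against SKM1. TNF, the inflammatory cytokine, read 1832, 2138 and 2377 in MOLM13, against 159, 110 and 109 in HL-60 and 396, 439 and 467 in SKM1, with no overlap between lines. LTB, lymphotoxin beta, averaged 817 ± 132 in MOLM13, against 87.6 ± 4.18 in HL-60 and 163 ± 4.49 in SKM1. CCL23, a myeloid chemokine, averaged 1289 ± 227 in MOLM13, against 162 ± 32.2 in HL-60 and 108 ± 9.77 in SKM1. CCL5 was bright in MOLM13 (10771 ± 1183) and also well expressed in HL-60 (4686 ± 647) and SKM1 (1180 ± 78.6).

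Of 26 integrins and adhesion molecules, 18 (69.2%) were higher and 3 (11.5%) lower. Their median was 0.51, with 0.66 against HL-60 and 0.20 against SKM1. ITGAL, the alpha chain of the leukocyte integrin LFA-1, averaged 2569 ± 122 in MOLM13, against 103 ± 12.4 in HL-60 and 1217 ± 37.1 in SKM1. ITGB5 averaged 812 ± 116 in MOLM13 and was at background in HL-60 (92.5 ± 6.08) and SKM1 (85.4 ± 4.87). PECAM1, an adhesion receptor of leukocytes and endothelium, averaged 1311 ± 165 in MOLM13, against 92.6 ± 4.53 in HL-60 and 258 ± 3.56 in SKM1. Of 26 lysosomal genes, 18 (69.2%) were higher and 3 (11.5%) lower. Their median was 0.48, with 0.62 against HL-60 and 0.59 against SKM1. NPC2, which carries cholesterol out of the lysosome, averaged 5180 ± 76.3 in MOLM13, against 2437 ± 372 in HL-60 and 216 ± 6.06 in SKM1. CTSH, a cysteine cathepsin, averaged 788 ± 41.9 in MOLM13, against 95.1 ± 4.77 in HL-60 and 400 ± 13.4 in SKM1. In the shBCAT1 arrays 23 of the 26 lysosomal genes were higher in MOLM13, against 21.4% of all genes there.

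Receptors that drive myeloid growth were among the genes that set MOLM13 apart. FLT3, the receptor tyrosine kinase of early progenitors, read 1682, 1497 and 1474 in MOLM13, against 94.2, 82.6 and 86.6 in HL-60 and 181, 186 and 182 in SKM1. HL-60 was at background and SKM1 above it, and MOLM13 exceeded their mean 12.2-fold (log2 3.61 ± 0.07, SE; adjusted p = 2.4e-22). CSF3R, the receptor of the granulocyte growth factor G-CSF, averaged 2963 ± 342 in MOLM13, against 319 ± 21.1 in HL-60 and 662 ± 39.5 in SKM1. IL3RA, the interleukin-3 receptor chain also known as CD123, averaged 484 ± 41.4 in MOLM13, against 102 ± 7.72 in HL-60 and 111 ± 6.92 in SKM1. CSF1R, the macrophage growth factor receptor, was close to SKM1 (1229 ± 64.7 in MOLM13, against 93.0 ± 4.24 in HL-60 and 947 ± 58.9 in SKM1).

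The receptors of GAS6 were unequal. AXL averaged 254 ± 14.1 in MOLM13 and was at background in HL-60 (81.6 ± 3.66) and SKM1 (84.0 ± 2.61). TYRO3 went the other way, 105 ± 5.87 in MOLM13 against 307 ± 13.9 in HL-60 and 423 ± 41.0 in SKM1. MOLM13 was therefore the only one of these 3 lines with AXL and its ligand GAS6 both above background. Over all 21 receptors tested, 11 (52.4%) were higher and 7 (33.3%) lower. Their median was 0.18, with 0.32 against HL-60 and 0.13 against SKM1.

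Genes under STAT5 control include feedback inhibitors and kinases that support survival, and several members of both kinds were higher in MOLM13. Of 14 tested, 8 (57.1%) were higher and 3 (21.4%) lower, with a median of 0.51. The list's median was only 0.04 against HL-60 and 0.32 against SKM1, and 4 of the 8 higher members were apart higher. The 3 lower members included BCL2L1, which was apart lower, and BCL6, which was level with HL-60 and below SKM1. SOCS2, a suppressor of cytokine signalling, read 2811, 2303 and 2715 in MOLM13, against 264, 326 and 281 in HL-60 and 99.9, 96.2 and 108 in SKM1 (15.2-fold). PIM1, a survival kinase, read 2926, 2364 and 2314 in MOLM13, against 167, 162 and 176 in HL-60 and 230, 244 and 253 in SKM1 (12.5-fold). SOCS1 averaged 660 ± 84.9 in MOLM13 and was at background in HL-60 (95.9 ± 10.7) and SKM1 (94.4 ± 2.49). CISH, another inhibitor of cytokine receptors, read 369, 241 and 266 in MOLM13, against 137, 108 and 113 in HL-60 and 126, 115 and 130 in SKM1 (2.37-fold).

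Members without such a difference were the STAT5 genes themselves and SOCS3. STAT5A averaged 532 ± 44.2 in MOLM13, against 619 ± 36.0 in HL-60 and 448 ± 19.0 in SKM1, with a log2 difference of 0.01 (adjusted p = 0.927). SOCS3 was near background in all 3 lines and passed only with the mean of all its probes (log2 0.21, adjusted p = 0.00318). The cyclin CCND2, sometimes counted as a STAT5 target, was intermediate, 1758 ± 138 in MOLM13, against 4732 ± 265 in HL-60 and 104 ± 4.99 in SKM1.

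The promoter of CISH is shown because the gene is a textbook STAT5 target and was apart in MOLM13. It lies on the minus strand at chr3:50611725-50612024 (RefSeq, GRCh38.p14, from 250 bases before to 50 after the start), with matches to the STAT core TTCNNNGAA, which reads the same on both strands, in capitals.
CISH promoter: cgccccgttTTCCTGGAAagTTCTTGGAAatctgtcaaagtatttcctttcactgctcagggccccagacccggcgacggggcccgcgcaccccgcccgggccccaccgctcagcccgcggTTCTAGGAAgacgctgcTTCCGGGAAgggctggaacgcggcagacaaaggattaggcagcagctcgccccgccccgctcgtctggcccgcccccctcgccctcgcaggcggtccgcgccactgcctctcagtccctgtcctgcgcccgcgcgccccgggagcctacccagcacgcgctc
It held 4 matches. At least 1 match was present in 7.66% of the 35116 promoters and at least 4 in 0.0199%. Of the 6 genes of the list with a promoter in the table, CISH was the only one with a match; PIM1 and SOCS1, which differed more between the lines, had 0 in this window.

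Most listed targets of KMT2A fusions were higher in MOLM13. It is the only one of these lines known to carry such a fusion. The fusion cannot be told apart from other traits of the line, and its part in the difference was not tested. Of the 16 targets tested beside the HOXA cofactors, 11 (68.8%) were higher and 1 (6.25%) lower. Their median was 0.79, with 0.73 against HL-60 and 0.62 against SKM1. MEIS1, a homeodomain cofactor of HOXA proteins, averaged 468 ± 54.2 in MOLM13, against 108 ± 22.2 in HL-60 and 109 ± 3.67 in SKM1. PBX3, the partner of MEIS1, averaged 1985 ± 16.7 in MOLM13, against 276 ± 16.3 in HL-60 and 723 ± 21.5 in SKM1. CDK6, a cell cycle kinase, read 2193, 2015 and 2082 in MOLM13, against 789, 970 and 891 in HL-60 and 716, 749 and 811 in SKM1. MEIS2 and PBX2, relatives of these cofactors, were lower (log2 -1.47 and -0.56). The 3 other MEIS2 probes, none above the median of all probe values, showed -0.04, -0.13 and 0.13.

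The histone demethylase gene JMJD1C averaged 624 ± 62.6 in MOLM13, against 252 ± 30.4 in HL-60 and 195 ± 14.7 in SKM1. RUNX2, MEF2C, CPEB2, ZEB2 and SENP6 were apart higher as well, with log2 differences from 0.62 to 1.52, and for RUNX2, ZEB2, SENP6 and CPEB2 the second probe showed differences of only 0.08 to 0.12. LMO2 averaged 1784 ± 110 in MOLM13, against 685 ± 134 in HL-60 and 1389 ± 96.7 in SKM1. IGF2BP2 exceeded HL-60 and not SKM1. MYB, essential in this kind of leukaemia, was similar in MOLM13 (5869 ± 765) and HL-60 (6473 ± 518), with 3580 ± 247 in SKM1, and its call against their mean (log2 0.28, adjusted p = 0.0289) ended without MOLM13 replicate 2 or 3, HL-60 replicate 3 or SKM1 replicate 1. BCL2 was at 1170 ± 159 in MOLM13, against 1046 ± 166 in HL-60 and 975 ± 36.8 in SKM1 and did not pass the test (adjusted p = 0.121), though it did with array weights (log2 0.32, adjusted p = 0.00402), without MOLM13 replicate 1 (adjusted p = 0.0302) and without HL-60 replicate 1 (adjusted p = 0.0393). TCF4 was the lower member, near background in every line. HOXA9 and HOXA10 were not analysed here.

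Inhibitors of the cell cycle differed in both directions. CDKN1A, which encodes the cell cycle inhibitor p21, read 6311, 5409 and 5706 in MOLM13, against 119, 123 and 108 in HL-60 and 550, 659 and 595 in SKM1. All 3 lines were separate, and MOLM13 exceeded the mean of the others 21.9-fold (log2 4.46 ± 0.10, SE; adjusted p = 1.3e-20). The other CDKN1A probe showed a log2 difference of 0.41.

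CDKN2A, the cell cycle inhibitor locus on chromosome 9, was at background in MOLM13. It read 83.5, 87.6 and 78.7 in MOLM13, against 158, 166 and 161 in HL-60 and 505, 497 and 492 in SKM1 (log2 -1.77 ± 0.07, SE; adjusted p = 1.56e-16). MTAP, the neighbouring gene of methionine salvage, read 284, 281 and 279 in MOLM13, against 612, 641 and 591 in HL-60 and 923, 860 and 800 in SKM1, so it was lower and still above background. Of 9 genes of that stretch of chromosome 9, 5 (55.6%) were apart lower, CDKN2A, MTAP, KLHL9, FOCAD and DMRTA1, against 13.7% over all genes. Another, HACD4, was higher. The call of DMRTA1 (log2 -0.18, adjusted p = 0.0294) ended without any of the 3 MOLM13 arrays, HL-60 replicate 3 or SKM1 replicate 3. MLLT3, the fusion partner of KMT2A in this line and located nearby, was near background in all 3 lines (99.4 ± 5.76 in MOLM13, against 110 ± 8.81 in HL-60 and 104 ± 11.4 in SKM1).

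Genes of mitosis were lower in MOLM13 almost as a block. Of 30 tested, 26 were lower and 1 higher, with a median of -0.52, against 26.6% lower and a median of -0.03 over all genes, and 16 were apart lower. The size was modest, and the median was -0.35 against HL-60 and -0.71 against SKM1. CENPF, a kinetochore protein, read 319, 405 and 359 in MOLM13, against 815, 852 and 948 in HL-60 and 736, 740 and 746 in SKM1 (2.24-fold lower). BIRC5, which encodes survivin, averaged 537 ± 31.9 in MOLM13, against 1112 ± 86.9 in HL-60 and 1214 ± 63.0 in SKM1, and CDC20, an activator of the anaphase-promoting complex, averaged 2603 ± 206 in MOLM13, against 5556 ± 489 in HL-60 and 5075 ± 401 in SKM1. UBE2C was the member called higher, on a probe that was at background in SKM1 and brightest in HL-60 (2648 ± 238 in MOLM13, against 3544 ± 96.0 in HL-60 and 96.2 ± 6.86 in SKM1). The other UBE2C probe showed a log2 difference of 0.48, against 2.18 on the probe used.

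DNA replication genes showed the same direction less uniformly: 18 of 33 (54.5%) were lower and 5 (15.2%) higher. Their median was -0.27, with -0.46 against HL-60 and -0.17 against SKM1. MCM2, a subunit of the replicative helicase, read 1251, 1715 and 1643 in MOLM13, against 3381, 3039 and 3222 in HL-60 and 2729, 2643 and 3214 in SKM1. MCM4, another subunit of that helicase, was higher, 3993 ± 646 in MOLM13, against 2183 ± 312 in HL-60 and 2531 ± 117 in SKM1, and GINS4 was higher too (348 ± 60.8 in MOLM13, against 140 ± 10.6 in HL-60 and 216 ± 0.412 in SKM1). Both lie on chromosome 8, and they are the only 2 tested genes of this list that do. Among cyclins and their inhibitors CCNE1, cyclin E, averaged 270 ± 12.5 in MOLM13, against 589 ± 15.2 in HL-60 and 925 ± 16.1 in SKM1. CDKN1B and CDKN2D were apart higher (log2 0.63 and 0.85). The other CCNE1 probe showed -0.29, against -1.45 on the probe used. The other CDKN2D probe, not above background, showed -0.02. Growth rate and cell cycle phase were not measured, and their part in these differences was not tested.

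**Figure D3:**
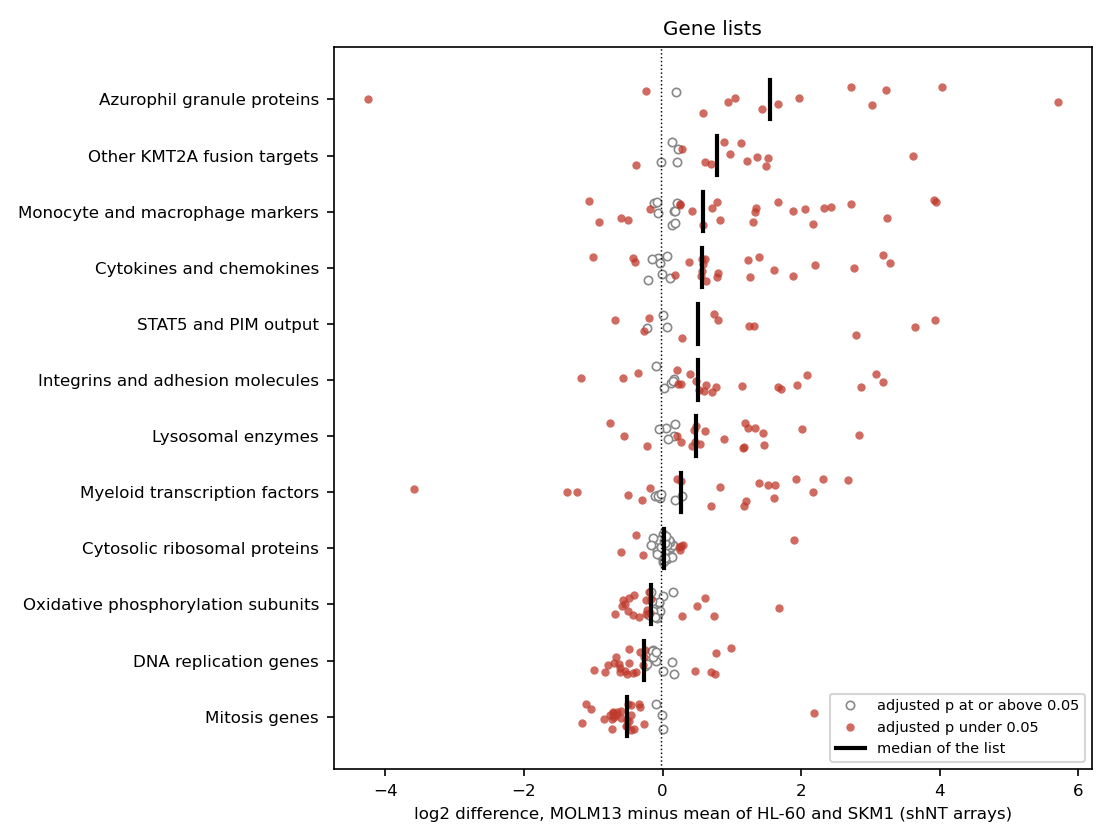
Log2 difference of MOLM13 minus the mean of HL-60 and SKM1 on shNT arrays for each tested gene of 12 lists; filled points passed the test (adjusted p under 0.05), open points did not, black bars are list medians and the dotted line is the median of all genes, -0.03. Azurophil granule genes have the highest median, 1.56, and mitosis genes the lowest, -0.52.

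Genes of chromosome 8 were higher in MOLM13 as a chromosome. Of 536 tested, 301 (56.2%) were higher and 30 (5.6%) lower, with a median log2 difference of 0.36, whereas off this chromosome 19.3% of 14688 genes with a placed position were higher, 27.4% lower and the median was -0.03. The median of chromosome 8 was 0.36, 0.35 and 0.38 on the individual MOLM13 arrays, each against the mean of the other 2 lines. Taken the same way it was -0.40, -0.44 and -0.41 on the HL-60 arrays, a departure at least as large in the other direction, and -0.02, -0.01 and -0.00 on the SKM1 arrays. Against HL-60 alone it was 0.52 and against SKM1 0.17. The genes called higher on chromosome 8 were raised by a median of 1.81-fold, against 1.41-fold for genes called higher elsewhere. Both values cover only genes already called higher. Of the 536 genes, 118 were called and at least 2-fold higher, against 4.28% of all genes tested. DNA copy number was not measured here, and its part in this difference was not tested.

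The difference covered the chromosome unevenly. In consecutive blocks of about 25 tested genes, 15 of the 21 blocks of chromosome 8 had over 50% of their genes higher, against 17 of 586 blocks (2.9%) elsewhere, and all 21 had a positive median, from 0.01 to 0.91. The lowest shares were in the 2 blocks at the start of the short arm, 26.9% and 23.1%, and the highest in the 2 blocks at the end of the long arm, 80.0% and 84.0%. Some genes of this chromosome were higher within lists that showed no such direction. RPL7 averaged 2736 ± 264 in MOLM13, against 587 ± 56.9 in HL-60 and 911 ± 6.94 in SKM1. Yet of 37 ribosomal protein genes 5 (13.5%) were higher and 3 (8.11%) lower, with a median of 0.02. In the list of respiratory chain subunits, 15 of 32 (46.9%) were lower and 5 (15.6%) higher. The median was -0.17, with -0.10 against HL-60 and -0.31 against SKM1. Of the higher genes, 3 lie on chromosome 8, UQCRB, CYC1 and COX6C. UQCRB, a subunit of complex III, averaged 2828 ± 405 in MOLM13, against 506 ± 29.6 in HL-60 and 1516 ± 44.5 in SKM1.

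MYC, which also lies on chromosome 8 and was named here with RRS1 and BOP1 after the values were seen, did not follow. It read 3405, 2947 and 3077 in MOLM13, against 5367, 5187 and 4069 in HL-60 and 3095, 3033 and 2993 in SKM1, below HL-60 and level with SKM1. Its call against the mean (log2 -0.29, adjusted p = 0.0108) ended without MOLM13 replicate 2 (adjusted p = 0.0702) and with the mean of all its probes (log2 -0.12, adjusted p = 0.15). RRS1 and BOP1, ribosome assembly factors of the same chromosome, were higher (log2 0.66 and 0.56). In their list of MYC network and nucleolar genes, 13 of 24 (54.2%) were lower and 7 (29.2%) higher. The list's median was -0.28, with -0.37 against HL-60 but 0.01 against SKM1. Other chromosomes differed less. Chromosome 19, which holds ELANE, PRTN3, AZU1 and PRSS57, had 37.6% of 1100 genes higher and 12.5% lower (median 0.08). Its median was 0.02 against HL-60 and 0.13 against SKM1. Chromosome 22 had 13.1% of 374 higher and 43.6% lower (median -0.13), with a median of -0.16 against HL-60 and -0.07 against SKM1.

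**Figure D4:**
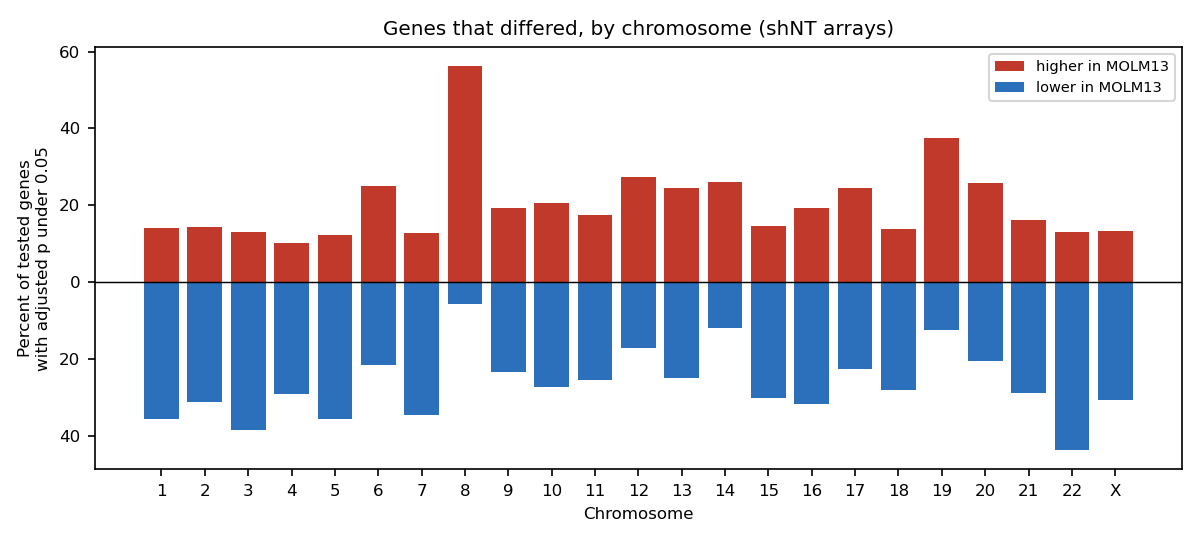
Percent of the tested genes of each chromosome with an adjusted p under 0.05 that were higher (up) or lower (down) in MOLM13 than the mean of HL-60 and SKM1 on shNT arrays. Chromosome 8 has 56.2% higher and 5.6% lower, and chromosome 22 has the largest share lower, 43.6%.

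BCAT1, the target of the study's hairpin, was somewhat lower at baseline in MOLM13. It read 1046, 1022 and 1144 in MOLM13, against 1473, 1476 and 1456 in HL-60 and 1207, 1239 and 1217 in SKM1, which put all MOLM13 arrays below the others by a small margin (1.25-fold lower, log2 -0.32 ± 0.07, SE; adjusted p = 0.000659). The difference from SKM1 alone did not pass the test (log2 -0.19, adjusted p = 0.0686). The mitochondrial isoform BCAT2 averaged 609 ± 57.6 in MOLM13, against 1078 ± 56.4 in HL-60 and 752 ± 24.8 in SKM1. Of 23 genes of branched-chain amino acid breakdown, 6 (26.1%) were higher and 9 (39.1%) lower, against 20.6% and 26.6% over all genes, and the median was -0.03 in both. The list's median was 0.03 against HL-60 and -0.19 against SKM1.

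BCAT1 passes amino groups to alpha-ketoglutarate. Of 24 enzymes of alpha-ketoglutarate and DNA methylation, 2 (8.33%) were higher and 7 (29.2%) lower, against 20.6% and 26.6% over all genes. The list's median was -0.13, with -0.15 against HL-60 and -0.02 against SKM1. The enzymes with the smallest p-values included GOT1, GOT2, IDH3A and IDH1. GOT1, the cytosolic aspartate transaminase, read 682, 845 and 926 in MOLM13, against 2071, 2289 and 2224 in HL-60 and 2054, 2285 and 2251 in SKM1 (2.7-fold lower, adjusted p = 7.25e-13). GOT2, its mitochondrial counterpart, averaged 1525 ± 59.5 in MOLM13, against 4202 ± 389 in HL-60 and 3191 ± 76.8 in SKM1. IDH3A, a subunit of the NAD-dependent isocitrate dehydrogenase, averaged 283 ± 27.2 in MOLM13, against 570 ± 89.3 in HL-60 and 889 ± 41.8 in SKM1, whereas IDH1, the cytosolic NADP-dependent enzyme, was higher (2076 ± 170 in MOLM13, against 842 ± 127 in HL-60 and 1197 ± 92.9 in SKM1).

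Among surface antigens pursued as targets in leukaemia, 12 of 17 (70.6%) were higher and 2 (11.8%) lower. Their median was 0.55, with 0.62 against HL-60 and 0.35 against SKM1. CD70, a ligand of the tumour necrosis factor family, averaged 5804 ± 608 in MOLM13, against 91.6 ± 7.02 in HL-60 and 6339 ± 321 in SKM1, so its difference came from HL-60. CD38 averaged 194 ± 20.0 in MOLM13, against 90.9 ± 3.77 in HL-60 and 103 ± 5.59 in SKM1. CLEC12A and CD47, which carries the signal against engulfment, were the lower members, at 142 ± 34.3 and 359 ± 37.0 in MOLM13, against 441 ± 32.3 and 552 ± 114 in HL-60 and 158 ± 5.82 and 594 ± 24.5 in SKM1. Of 35 interferon-stimulated genes, 8 (22.9%) were higher and 13 (37.1%) lower, against 20.6% and 26.6% over all genes. Their median was -0.09, with 0.03 against HL-60 and -0.00 against SKM1. Members were far apart in opposite directions. XAF1 averaged 936 ± 163 in MOLM13, against 225 ± 21 in HL-60 and 153 ± 4.78 in SKM1, while HERC5 was 11.7-fold lower in MOLM13.

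The same line contrast was taken in the 9 shBCAT1 arrays. They share no array with the shNT contrast, although they entered the same fit and so the same estimate of the spread, and the labels do not say whether they came from separate cultures. There MOLM13 was higher at 3267 genes (21.4%) and lower at 4135 (27%), 48.4% in all. At least 2-fold, 4.98% were higher and 4.01% lower. Of the 1808 genes apart higher with shNT, 1591 (88%) were called higher again and 1341 (74.2%) were again apart, and 13 were called the other way. Of the 2102 genes apart lower, 1831 (87.1%) were called lower again and 1467 (69.8%) were again apart. Among those at least 2-fold from the nearer line, 342 of 357 higher and 152 of 153 lower genes were again apart. Over the tested genes the contrasts correlated at 0.895, a value across genes, which are not independent replicates. On chromosome 8, 300 of 536 genes were higher and 26 lower in these arrays.

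The contrast was not identical under the 2 hairpins. A test of the difference itself, shNT contrast minus shBCAT1 contrast, was passed by 2126 genes (13.9%), of which 1114 (7.29% of those tested) had a larger and 1012 (6.62%) a smaller value with shNT. CCND1, cyclin D1, averaged 327 ± 6.54 in MOLM13, against 517 ± 38.6 in HL-60 and 77.0 ± 1.39 in SKM1 with shNT, and 150 ± 14.7 in MOLM13, against 1386 ± 110 in HL-60 and 82 ± 2.2 in SKM1 with shBCAT1. PNCK, a calcium-dependent kinase, averaged 505 ± 164 in MOLM13 with shNT and 93.7 ± 0.55 with shBCAT1, and was near background in both other lines throughout. ADAMDEC1, a metalloprotease of macrophages, averaged 127 ± 13.5 in MOLM13 with shNT and 412 ± 21.6 with shBCAT1, with both other lines below 92.1 in both sets. CAMP, the antimicrobial peptide cathelicidin, averaged 106 ± 5.34 in MOLM13 with shNT and 279 ± 16.3 with shBCAT1, and at most 110 in the other lines in either set.

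The mitosis and replication lists moved most. The median difference of the mitosis genes was -1.36 with shBCAT1 against -0.52 with shNT, and 29 of 30 were lower, against 27% of all genes with shBCAT1. For the replication genes it was -1.10 against -0.27, and 28 of 33 were lower. MCM4, higher in MOLM13 with shNT, was below the mean of the other lines with shBCAT1 (log2 -0.31). These medians compare arrays of knockdown cells in all 3 lines and say how far the baseline order of the lines carries over, not how the knockdown acted.

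**Figure D5:**
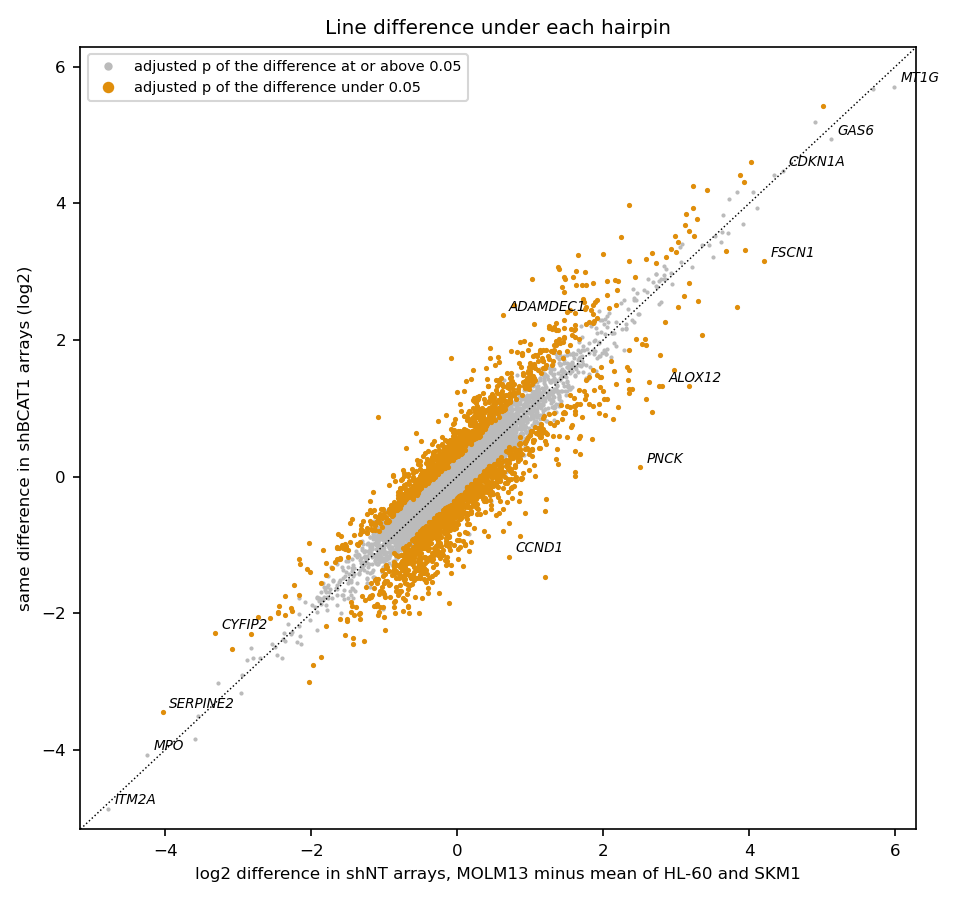
Log2 difference of MOLM13 minus the mean of HL-60 and SKM1 for every tested gene in the shNT arrays (x) and in the shBCAT1 arrays (y), with the line of equality dotted. Orange points are the 2126 genes whose 2 differences differed from each other (adjusted p under 0.05); MT1G, GAS6, CDKN1A, ITM2A and MPO lie close to the dotted line, and PNCK, CCND1, ALOX12 and ADAMDEC1 away from it.

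Of 5 HOXB genes tested, 0 were higher or lower in limma's test, with 0 at an unadjusted p under 0.05. Of 15 Toll-like and lectin receptors, 1 (6.67%) was higher and 4 (26.7%) lower, against 20.6% and 26.6% over all genes, so the share lower was that of all genes. Of 13 erythroid and megakaryocytic markers, 3 (23.1%) were higher and 1 (7.69%) lower, with a median of 0.01. Of 14 lymphoid markers, 5 (35.7%) were higher and 2 (14.3%) lower, with a median of 0.04. CD4, which monocytic cells also express, was among the 5, at 737 ± 68.5 in MOLM13, against 231 ± 12.9 in HL-60 and 132 ± 8.8 in SKM1. EPCAM, an epithelial adhesion molecule, was at background in MOLM13 (91.4 ± 8.9) and HL-60 (89.3 ± 0.678) and at 1473 ± 83.7 in SKM1, so the lower value of MOLM13 against the mean came from SKM1 alone.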

How the data were processed

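Total RNA from 18 samples was hybridised to 1-colour Illumina bead arrays, from 200 ng of RNA per the labels' protocols. The deposited values are linear intensities per probe, from 60.4 to 22917.5. Array medians of 91.0 to 93.1 put the deposited arrays on 1 scale; any normalization and background steps by the authors are not given in the sources used here. Of 48107 probes, 7 with missing values were left out, and 30113 carried 1 gene symbol in the platform annotation, 8 several and 17986 none. The brightest probe stood for each of 20042 genes. Testing was limited to the 15288 genes with at least 1 group mean above the overall probe median of 92.1, and 4754 dimmer genes were set aside. No depth is defined for arrays, and 3 per group limit the precision.

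Log2 intensities were fitted with limma 3.58.1 (R 4.3.3) as 6 group means over 18 arrays. The residual degrees of freedom were 12 and the prior ones 10.8, and p-values were adjusted by Benjamini-Hochberg across the 15288 genes. Every adjusted p is from this fit or, where said, from an alternative to it. Promoters came from RefSeq (GRCh38.p14), and chromosomes from the same annotation. The fit was tested on simulated data. Python 3.11.15 with pandas 2.3.3, numpy 2.4.6 and matplotlib 3.10.9 was used for counting and plotting.

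Named genes were the 15 farthest from the nearer line in each direction among those apart, members of lists of 18 or fewer tested genes, the 6 with the smallest p of longer lists, BCAT1, the 5 with the smallest adjusted p between hairpins, and cell type markers; of these, a selection made with their values known is printed. The members and lists were chosen with earlier results of these data known. Other metallothioneins, APOC1, APOE, CT45A1, MYC, RRS1 and BOP1 were named after their values were seen. Alternatives were another background correction, normalization, filter, probe summary, variance model, array weights, a replicate block, the 9 shNT arrays alone, each shNT array left out, and the genes of chromosome 8 left out, the last chosen after seeing the data.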

Additional observations from a re-analysis of the deposited data

Results flagged for a closer look

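Of the 147 genes printed with values, a selection of those that the naming rule gives, 55 had a line difference that itself differed between the hairpins (limma, test of the shNT difference minus the shBCAT1 difference, adjusted p under 0.05), against 13.9% of all genes tested. ADAMDEC1, ALOX12, CAMP, CCND1 and PNCK were chosen by this p, so the share is a description only. The values that follow are that log2 quantity, so a positive value means that MOLM13 stood higher relative to the other lines with shNT than with shBCAT1.

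Among the genes farthest from the other lines, it was -0.42 for TRPM4, 1.06 for FSCN1 and 0.63 for TYROBP. It was -0.58 for SERPINE2, -1.03 for CYFIP2, -0.66 for DNAAF3, -0.49 for MACROD1, -0.54 for RAVER2 and -0.34 for IGFBP2. Granule genes mostly had negative values: -0.56 for ELANE, -1.33 for PRTN3, -0.42 for AZU1, -0.42 for CTSG, -0.35 for RNASE2, -0.40 for CTSC, -1.24 for PRG2, -1.96 for S100A8, -0.96 for S100A9 and -1.26 for CHI3L1. SERPINB1, the protease inhibitor, had 0.37.

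Among receptors, fusion targets and their outputs, the value was -0.82 for CSF1R, 0.70 for AXL, -0.38 for SOCS2, 0.42 for MEIS1 and -0.79 for CDK6. For monocyte, adhesion and surface genes it was -0.29 for CD93, -0.35 for IRF8, -0.48 for CD74, 0.36 for ITGB5 and -0.41 for CD70. The secreted factors were split, with 1.85 for TNF, 1.17 for CCL5 and -0.49 for CCL23. It was 0.51 for PTPRC and 0.92 for CD3D.

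KLHL9, on chromosome 9, had -0.44. Cell cycle genes had positive values: 0.52 for CCNE1, 1.20 for CDKN2D, 0.58 for CENPF, 0.79 for BIRC5, 0.58 for CDC20, 0.83 for UBE2C, 1.25 for MCM2, 1.06 for MCM4 and 0.89 for GINS4. BCAT1, the hairpin's own target, had -0.53, GOT1 had 0.46 and MYC had -0.59. The metallothioneins MT1E and MT1X had 0.38 and 0.52. The remaining genes, chosen for their p in this test, were ADAMDEC1 at -1.73, ALOX12 at 1.48, CAMP at -1.25, CCND1 at 1.88 and PNCK at 2.37.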

How the results depend on the processing

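Under 18 alternatives, 2618 of 2640 values of the 147 genes printed with values, a selection of those that the naming rule gives, kept their direction and their side of the threshold, 13 fell below it, 9 passed it and 0 reversed. The changed calls belonged to 8 genes, CAMP, CTSC, SOCS3, MYB, BCL2, DMRTA1, MYC and SPI1. The count of genes that differed from the mean of the other lines, 7214, ranged from 6579 to 7743 over all alternatives and from 6591 to 7101 when 1 shNT array was left out. The count against HL-60 ranged from 6302 to 6663 and that against SKM1 from 6725 to 7339 without 1 array. The count for the difference between hairpins, 2126, was least stable, from 1515 without MOLM13 replicate 2 to 2972 with array weights. Deviations of same-numbered shNT arrays correlated at -0.0804 to 0.232 and those of different-numbered ones at -0.22 to 0.123. Between SKM1 and MOLM13 the same-numbered pairs were all positive (0.232, 0.0453 and 0.176), so the numbers may pair arrays of these lines. With the replicate number as a block 7280 genes were called. Among gene lists, 636 of 640 counts stayed within 1.5 times. Without chromosome 8 the higher counts were 3 for replication, 3 for ribosomal and 2 for respiratory chain genes, and with the stricter filter the lower count of KMT2A targets was 0; for these the smaller number of genes tested is the cause by construction. One probe stands for each gene, and this limits single calls: of 57 printed genes with several probes, 19 showed at least 50% of the log2 difference on every other probe and 22 on none. These 22 included ANKRD35, LYZ, CHI3L1, CTSH, CCND2, CCNE1, CDKN2D, UBE2C, UQCRB, CLEC12A, MT1E, MT1H and CT45A1.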
